A study of Mus musculus with 28 samples.

Results

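Transcription factors of the neural progenitor program, *Insm1*, *Hes6*, *Gsx1*, *Gsx2*, *Mycn*, *E2f1*, *Olig2*, *Tcf4* and *Tcf12*, were followed through the subependymal zone (SEZ) of the adult mouse brain, a neurogenic niche along the lateral ventricle. They were chosen by name: every row of the transcript tables whose symbol matched was taken, which gave 9 of 17690 gene rows, and all 9 were present in the tables of all 28 libraries. The data are single cells sorted into plates and read by SORT-seq, in which each transcript is tagged with a molecular barcode and counted from its 3' end. In the SEZ, slowly dividing neural stem cells (NSCs) give rise to fast-dividing progenitors, which produce neuroblasts that migrate to the olfactory bulb. The 28 libraries fall into 7 sorts of 4 libraries each: GFP+ cells of Troy-GFPiresCreER +/ki mice, meant for NSCs; wild-type marker sorts by anti-GLAST antibody and/or binding of Alexa647-coupled EGF, and by anti-PROM1 with anti-CD24; RFP+ dividing cells of Ki67-tagRFP ki/ki mice; tdTomato+ cells of Ki67-iresCreER +/ki Rosa-tdTomato +/ki mice taken 2 days after a single dose of 5 mg tamoxifen; the same line taken from the SEZ at 60 days; and a mixed sort of tdTomato+ cells at 60 days from SEZ or olfactory bulb together with O4+ oligodendrocytes.

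All mice were labelled Bl/6; those of the 60-day SEZ sort were 16 to 19 weeks old, those of the mixed sort 8 to 19 weeks and all others 8 to 10 weeks. In the tamoxifen line, Cre is made where Ki67 is transcribed, so that the label marks cells that were dividing at the dose and whatever they became. The labels name no animals per library, so the p-values below measure the spread between libraries, which may be technical. Of 2688 wells, 1789 held at least 1000 transcripts and were used as cells (the study text states about 1500 of about 2500), with 11 to 89 cells and 43149 to 572793 transcripts per library. The anti-PROM1 and anti-CD24 sort kept 64 cells, the fewest, and its values are given as levels with no test. *Mki67*, which encodes Ki67, averaged 632 CPM (transcripts scaled to 1000000 per library) in the Ki67-RFP sort, 526 CPM in GLAST/EGF, 221 CPM at 2 days and 220.2 CPM in Troy-GFP, and was at 0 in all libraries of the 60-day SEZ sort. *Slc1a3*, which encodes GLAST, averaged 1610 CPM in the GLAST/EGF sort and 3059 CPM in the Troy-GFP sort. A cluster of 35 cells led by gut epithelium genes came from Troy-GFP (24 cells) and GLAST/EGF (11 cells), and a cluster of 24 cells led by T and natural killer cell genes came mostly from the mixed (13 cells) and 60-day (9 cells) sorts.

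As background, INSM1 is a zinc finger repressor made in neural progenitors that are leaving the stem cell state. HES6 is a helix-loop-helix protein known to work against the Notch effector HES1. GSX1 and GSX2 are homeodomain proteins of the ventral forebrain, MYCN is a growth-promoting Myc protein, and E2F1 drives genes of DNA replication. OLIG2 is a helix-loop-helix factor of progenitors and of the oligodendrocyte lineage. TCF4 and TCF12 are E proteins, the dimer partners that proneural factors need to bind DNA, and Id proteins take such partners away.

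In GENCODE M21 (GRCm38, which is mm10) the genes lie as follows. *Insm1* is a gene of 1 exon on the plus strand of chromosome 2, chr2:146221921-146225020. *E2f1* lies on the minus strand of the same chromosome, chr2:154559407-154569892. *Hes6* is at chr1:91411483-91414038, *Mycn* at chr12:12936093-12941914 and *Tcf12* at chr9:71842688-72111871, all on the minus strand. *Gsx2* (chr5:75075601-75077893), *Gsx1* (chr5:147188696-147190947) and *Olig2* (chr16:91225457-91228677) are on the plus strand. Of these genes only *Tcf12* is overlapped by other annotated genes, and none of those has a row of its own in the tables.

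The RefSeq promoter table (GRCm38.p6) held 7 of the 9 genes. Shown are the promoters of the members that were higher in both the Ki67-RFP and the GLAST/EGF sort than in Troy-GFP and whose listed window lies at least in part before the gene start annotated in GENCODE, since helix-loop-helix factors and E2F proteins are themselves among the members. Each runs 5′ to 3′ up to that annotated start: all 250 listed bases for *Hes6* and *Gsx2*, and 172 for *Mycn*, whose other 78 lie inside the annotated gene and are not printed. In each, capitals mark E-boxes (CANNTG, the letters bound by helix-loop-helix dimers) and E2F-type letters (TTTNNCGC), searched on both strands.
Hes6 promoter (chr1:91414039-91414288, minus strand): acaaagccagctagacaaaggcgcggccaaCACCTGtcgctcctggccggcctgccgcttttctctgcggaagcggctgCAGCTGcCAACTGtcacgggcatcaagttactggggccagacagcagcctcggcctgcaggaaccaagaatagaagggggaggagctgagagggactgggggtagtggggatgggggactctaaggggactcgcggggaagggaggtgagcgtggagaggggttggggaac
Gsx2 promoter (chr5:75075351-75075600, plus strand): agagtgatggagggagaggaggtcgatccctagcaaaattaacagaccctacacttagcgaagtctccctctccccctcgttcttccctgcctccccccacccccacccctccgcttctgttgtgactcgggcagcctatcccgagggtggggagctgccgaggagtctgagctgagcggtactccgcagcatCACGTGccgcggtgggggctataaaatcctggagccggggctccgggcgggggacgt
Mycn promoter (chr12:12941915-12942086, minus strand): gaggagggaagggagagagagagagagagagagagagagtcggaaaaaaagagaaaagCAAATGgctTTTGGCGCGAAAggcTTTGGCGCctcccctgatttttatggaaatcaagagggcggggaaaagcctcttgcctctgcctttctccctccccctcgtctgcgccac
Over the 250 bases before the RefSeq start, *Hes6* held 3 E-boxes, 1 of them with the letters CAGCTG, *Gsx2* held 1 and *Mycn* 1. *Mycn* also held 3 matches to TTTNNCGC, of which a pair overlap on opposite strands. Of 32851 promoter windows of that length, 66.2% held CANNTG, 13% held CAGCTG and 4.28% held TTTNNCGC. The matches are descriptions of the letters and no binding was measured. The whole *E2f1* window of the table lies inside the annotated gene and is not shown. *Insm1* and *Tcf4* have no entry.

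Levels are in CPM, computed from the summed transcripts of a library's cells after trimmed-mean (TMM) scaling, and are given for the 4 libraries of a sort and as mean ± SD. *Insm1* was nearly absent from the 60-day SEZ sort and highest at 2 days and in Ki67-RFP. Its libraries read 534, 421, 442 and 490 CPM 2 days after tamoxifen (472 ± 50.4, n = 4) and 427, 406, 388 and 455 CPM in Ki67-RFP (419 ± 28.7, n = 4). In GLAST/EGF they read 163, 200, 239 and 166 CPM (192 ± 35.5, n = 4). The 2-day and Ki67-RFP libraries overlap each other and lie above all GLAST/EGF libraries. Troy-GFP libraries lay lower, at 57.6, 70.4, 75.2 and 49.97 CPM, and those of the 60-day SEZ sort at 2.12, 2.18, 0 and 0 CPM, which rests on 2.00 transcripts in all. The mixed sort lay between those, at 10.5 ± 4.26 CPM, and the anti-PROM1 and anti-CD24 sort spread from 96.3 to 343 CPM.

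*Hes6* did not follow *Insm1*. It was highest in Ki67-RFP (247, 303, 375 and 257 CPM, mean 296 ± 58.1, n = 4) and GLAST/EGF (317, 349, 256.5 and 196 CPM, mean 280 ± 67.6, n = 4), whose libraries overlap. The sort at 2 days, highest for *Insm1*, read 139, 157, 158 and 138 CPM for *Hes6* (148 ± 11.3, n = 4), overlapping Troy-GFP at 150, 162, 121 and 145 CPM (144 ± 17.2, n = 4). In the 60-day sorts *Hes6* read 28 ± 13.7 CPM in the SEZ sort and 28.5 ± 11.5 CPM in the mixed sort, which overlap.

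*E2f1* had the same leading sort as *Hes6*. Ki67-RFP libraries read 84, 63.5, 71.2 and 88 CPM (76.7 ± 11.3, n = 4), all above GLAST/EGF at 44.5, 51.7, 54.9 and 46.3 CPM (49.4 ± 4.82, n = 4). The libraries at 2 days read 40.5, 21.8, 44.8 and 32.4 CPM (34.9 ± 10.1, n = 4) and those of Troy-GFP 11.4, 28.3, 19.9 and 11.8 CPM (17.9 ± 7.96, n = 4), and these overlap. At 60 days 3.01 transcripts were counted in each of the SEZ and the mixed sort.

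*Mycn* differed little in mean between 3 sorts: 183 ± 19.3 CPM at 2 days, 179 ± 20.2 in Ki67-RFP and 177 ± 28.1 in GLAST/EGF (n = 4 each), with overlapping libraries. Troy-GFP split into 2 libraries at 112 and 126.4 CPM and 2 at 39.8 and 42.4 CPM, and the SEZ sort at 60 days held 8.47, 6.57, 4.52 and 0 CPM.

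*Gsx2* had its highest means in the same 3 sorts as *Mycn*, in another order. It read 70.6 ± 13.3 CPM in GLAST/EGF, 68.3 ± 20.8 in Ki67-RFP and 57 ± 24.3 at 2 days, against 33.2 ± 5.38 in Troy-GFP and 3.76 ± 4.73 in the 60-day SEZ sort. In the mixed sort *Gsx2* was at 0 in all 4 libraries, where 3 transcripts over the sort would be 1.89 CPM. *Gsx1* was sparse, with a transcript in 101 of the 2688 wells, and its neighbouring sorts overlapped throughout, from 41.4 ± 35.2 CPM at 2 days (91, 18.2, 42.1 and 14.4 CPM) to 0 in all 4 libraries of the 60-day SEZ sort.

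*Tcf4* and *Tcf12*, the E proteins, were present in every sort. *Tcf4* is a long gene of chromosome 18 (chr18:69343356-69689079, plus strand, 20 exons in its longest coding transcript), overlapped by 1 other annotated gene with no row in the tables. *Tcf4* ranged from 1924 ± 170 CPM in Ki67-RFP and 1727 ± 163 at 2 days through 1456 ± 74.1 in GLAST/EGF and 1226 ± 105 in Troy-GFP to 896 ± 56 in the 60-day SEZ sort and 821 ± 62.9 in the mixed sort (n = 4 each), and each neighbour in the order of all 7 sorts overlapped the next. *Tcf12* ran from 232 ± 51.3 CPM at 2 days to 79.7 ± 18.4 CPM in the 60-day SEZ sort, also with overlap between all neighbours.

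*Olig2* had another order. The mixed sort, which includes O4+ oligodendrocytes, read 424, 545, 282 and 315 CPM (392 ± 119, n = 4), above all other libraries. GLAST/EGF (235, 73.5, 78.4 and 169 CPM, mean 139 ± 77.8) and Troy-GFP (38.1, 75.6, 130 and 164 CPM, mean 102 ± 55.9) overlapped each other, and Ki67-RFP (40.7 ± 20.8), the 2-day sort (36.6 ± 18.5) and the 60-day SEZ sort (30.1 ± 21.3) were lowest.

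**Figure D1:**
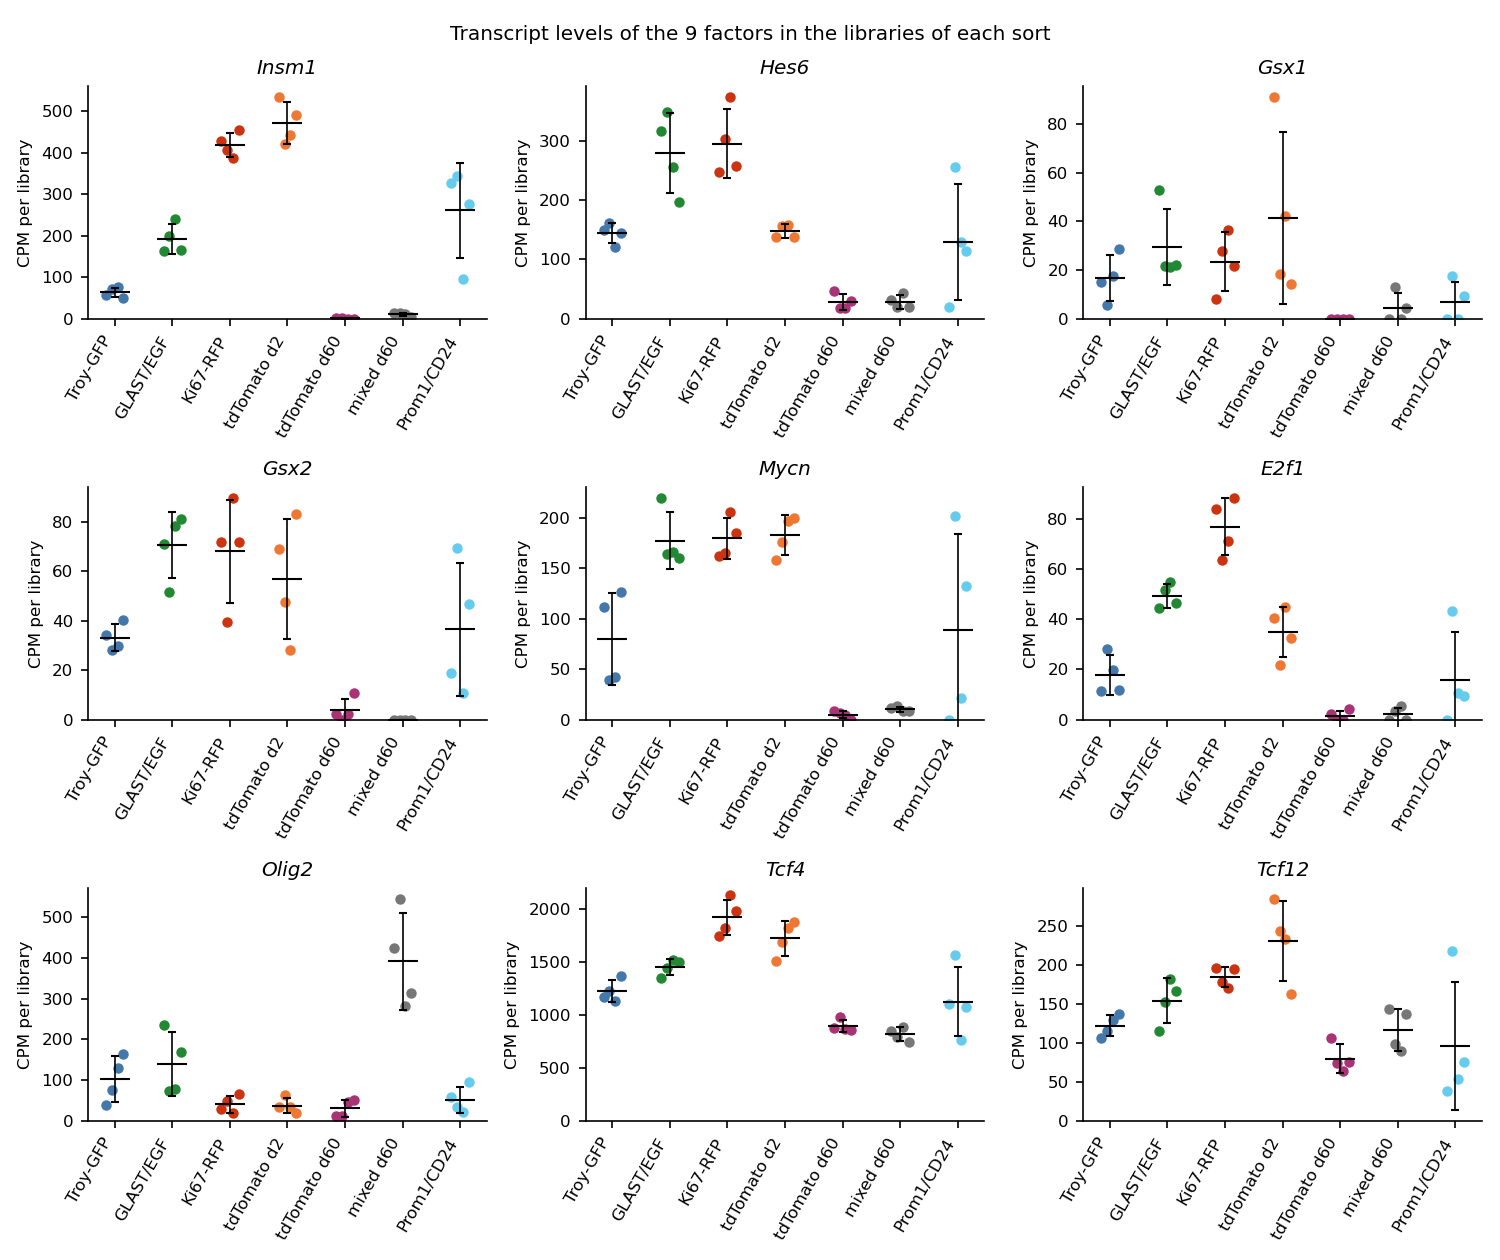
CPM of each factor in the 4 libraries of each sort (points), with mean and SD over libraries (black). Insm1 is highest at 2 days and in Ki67-RFP (472 and 419 CPM), Hes6 in Ki67-RFP and GLAST/EGF (296 and 280 CPM), and Olig2 in the mixed sort (392 CPM).

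Ki67-RFP against Troy-GFP sets dividing cells against the sort meant for NSCs. By limma voom with Benjamini-Hochberg adjustment, 59.9% of the 8396 genes tested passed at 0.05 in this comparison (29.5% higher, 30.5% lower), and 8 of the 9 factors passed, 7 higher and 1 lower in Ki67-RFP. *Insm1* was higher by 2.65 ± 0.16 (log2 fold change ± SE, adjusted p = 2.7e-13), *E2f1* by 2.03 ± 0.32, *Mycn* by 1.28 ± 0.24, *Hes6* by 0.94 ± 0.15 and *Gsx2* by 0.92 ± 0.27. The E proteins were higher by smaller amounts, *Tcf4* by 0.58 ± 0.09 and *Tcf12* by 0.54 ± 0.15. *Olig2* was lower (-1.25 ± 0.37, adjusted p = 0.0049) and *Gsx1* did not pass (0.50 ± 0.48). The median of the 9 was 0.92 and that of all genes tested 0.01. With only the libraries of the shared flow cell, *Gsx2* (0.82, adjusted p = 0.065) and *Tcf12* (0.39, adjusted p = 0.072) no longer passed, and with each cell thinned to 1000 transcripts *Hes6* (0.86, adjusted p = 0.061) and *Tcf12* (0.21, adjusted p = 0.55) did not.

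The partners of these factors moved in both directions. Of the 5 other E protein and Id genes, all tested, *Tcf3*, which encodes a further E protein, was higher (1.33 ± 0.22), and *Id3* (-6.54 ± 0.50), *Id2* (-3.40 ± 0.16), *Id4* (-1.64 ± 0.16) and 1 other were lower. All 3 tested of 5 Hes and Hey repressors of the Notch pathway were lower, *Hey1* by -3.81 ± 0.56, *Hes1* by -3.11 ± 0.47 and *Hes5* by -2.67 ± 0.19. Of 12 E2F and pocket protein genes, 11 were tested; 7 were higher, led by *E2f8* (2.33 ± 0.36), and 1 was lower. All 15 tested of 16 genes known as E2F targets were higher, with a median of 1.82, among them the nucleotide reductase subunit *Rrm2* (2.48 ± 0.17) and the replication helicase subunit *Mcm2* (2.14 ± 0.19). Of 9 tested ventral forebrain homeobox and Sp factors 8 were higher, led by *Sp9* (4.49 ± 0.42), and none was lower. These lists were drawn up with earlier results of the data known.

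GLAST/EGF against Troy-GFP showed 6 of the 9 factors higher and none lower, where 30.5% of 7818 genes passed (15.1% higher). *Insm1* was higher by 1.61 ± 0.19 (adjusted p = 3.3e-06, limma voom), *E2f1* by 1.51 ± 0.33, *Mycn* by 1.33 ± 0.27, *Gsx2* by 1.11 ± 0.24 and *Hes6* by 0.92 ± 0.18. *Tcf4* passed narrowly (0.27 ± 0.10, adjusted p = 0.0396) and lost the call under 16 alternatives (adjusted p = 0.054 to 0.39), which include leaving out any single GLAST/EGF library or Troy-GFP library 1, 2 or 3. *Gsx1* (0.93 ± 0.45), *Olig2* (0.56 ± 0.37) and *Tcf12* (0.37 ± 0.17) did not pass, although *Tcf12* did without GLAST/EGF library 1 (0.47, adjusted p = 0.045). The shared flow cell alone, with fewer libraries, gave 1.60 for *E2f1* (adjusted p = 0.073) and 0.81 for *Gsx2* (adjusted p = 0.16). All 15 tested E2F target genes were higher here too (median 1.44), and 3 of 5 tested E protein and Id genes were lower, *Id3* by -1.69 ± 0.18. This comparison shares the Troy-GFP libraries with the one before it.

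GLAST/EGF against Ki67-RFP compares 2 sorts that both hold dividing progenitors. Here 36.5% of 7798 genes passed, and 4 of the 9 factors did, 3 lower and 1 higher in GLAST/EGF. *Insm1* was lower by -1.09 ± 0.13 (adjusted p = 3.7e-07, limma voom) and *Tcf4* by -0.36 ± 0.08, while *Olig2* was higher by 1.75 ± 0.35 (adjusted p = 0.00031). *Tcf4* did not pass with cells thinned to 1000 transcripts (-0.12, adjusted p = 0.46). *E2f1* was lower by -0.57 ± 0.21 (adjusted p = 0.032), a call lost without GLAST/EGF library 1, 2 or 4 or Ki67-RFP library 1 or 4 (values -0.59 to -0.52) and on the shared flow cell. *Hes6* (-0.07 ± 0.16), *Mycn* (0.01 ± 0.14), *Gsx2* (0.14 ± 0.23), *Gsx1* (0.36 ± 0.39) and *Tcf12* (-0.22 ± 0.15) did not pass. Beside this, 8 of 9 tested ventral forebrain homeobox and Sp factors were lower in GLAST/EGF, *Sp8* by -3.94 ± 0.62 and *Dlx2* by -1.48 ± 0.13, and both tested Hes and Hey genes were higher.

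The cells labelled 2 days earlier differed from Ki67-RFP cells in 28.5% of 6952 genes tested, and in 2 of the 9 factors, both lower. *Hes6* was lower by -0.99 ± 0.16 (adjusted p = 6.5e-05, limma voom) and *E2f1* by -1.11 ± 0.28 (adjusted p = 0.0041). *Insm1* (0.14 ± 0.11), *Mycn* (0.01 ± 0.15), *Gsx2* (-0.40 ± 0.30), *Gsx1* (0.58 ± 0.46), *Tcf4* (-0.18 ± 0.08) and *Tcf12* (0.27 ± 0.15) did not pass, nor did *Olig2* (-0.14 ± 0.39); without 2-day library 4, *Tcf12* did (0.43, adjusted p = 0.037). Of 15 tested E2F targets, 6 were lower and 1 was higher, *Rrm2* (0.64 ± 0.10). Neuroblast-like cells, described below, were 118 of 220 cells at 2 days and 46 of 315 in Ki67-RFP.

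Most of the factors were lower in the labelled SEZ cells at 60 days than at 2 days. Of the 7 factors tested, 6 were lower and none higher, where 67.5% of 7648 genes passed (33.6% lower). *Insm1* was lower by -7.87 ± 0.45 (adjusted p = 8.2e-11, limma voom), *Mycn* by -5.24 ± 0.51, *Gsx2* by -3.83 ± 0.62, *Hes6* by -2.37 ± 0.28, *Tcf12* by -1.42 ± 0.21 and *Tcf4* by -0.85 ± 0.11. These sizes rest on 2.00 transcripts of *Insm1*, 9.03 of *Mycn* and 7.01 of *Gsx2* at 60 days. *Insm1*, *Mycn* and *Gsx2* met the filter on low genes only through the 2-day libraries. They could therefore come out lower at 60 days but hardly higher, and their direction adds nothing to the count of factors that were lower. Without 60-day library 4 *Mycn* gave -4.55 and *Gsx2* -4.43, each moved by more than 1.5 times on the linear scale and still passing. Over the pooled libraries the *Insm1* level was 432-fold higher at 2 days than at 60 days, with an exact 95% interval of 119 to 3575 that covers counting error only. *E2f1*, at 3.01 transcripts, was 21.7-fold higher at 2 days (6.93 to 110, likewise). *Tcf12* did not pass in thinned cells (-0.49, adjusted p = 0.18). *Olig2* did not pass (-0.40 ± 0.49). *E2f1* and *Gsx1* were too sparse for the fit. Against a floor of 3 transcripts over the 60-day sort, *Gsx1* was 24.7-fold lower than its pooled 2-day level of 40.2 CPM. That value takes the 2-day level as exact. The 2-day libraries spread from 14.4 to 91 CPM of *Gsx1*, and 1 cell held 15.5 of the 46.6 transcripts. All 14 tested E2F target genes and all 9 tested ventral forebrain homeobox and Sp factors were lower, *Dlx2* by -7.38 ± 0.58, while *Id3* (5.96 ± 0.55) and *Hes5* (3.42 ± 0.23) were among the genes that were higher. At 60 days 270 of 349 cells fell in NSC-like clusters, a name given below from markers of NSCs or astrocytes. Neurogenic clusters held 3 of the 349 (0.860%), against 94.1% of the cells at 2 days. The 60-day mice were also older, and the flow cell of the 2-day libraries is not known.

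The mixed 60-day sort differed from the 60-day SEZ sort in *Olig2*, higher by 3.83 ± 0.41 (adjusted p = 1.4e-06, limma voom), with 43.3% of 8152 genes passing. Of the other 3 factors tested, *Tcf12* (0.48 ± 0.21), *Tcf4* (-0.21 ± 0.11) and *Hes6* (-0.02 ± 0.38) did not pass, and 5 factors were too sparse to test. *Tcf12* did pass by total transcripts in place of TMM (0.61, adjusted p = 0.027), with all sorts in the fit (0.57), and without mixed library 3 (0.62) or 60-day library 1 (0.64). All 6 tested genes of a list of 6 oligodendrocyte lineage factors were higher, led by *Sox10* (8.06 ± 0.89) and *Myrf* (7.25 ± 0.69), the latter a factor of myelin gene expression. The mixed sort held 125 oligodendrocyte-like and 17 oligodendrocyte precursor-like cells among 314, the 60-day SEZ sort 2 and 0 among 349.

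**Figure D2:**
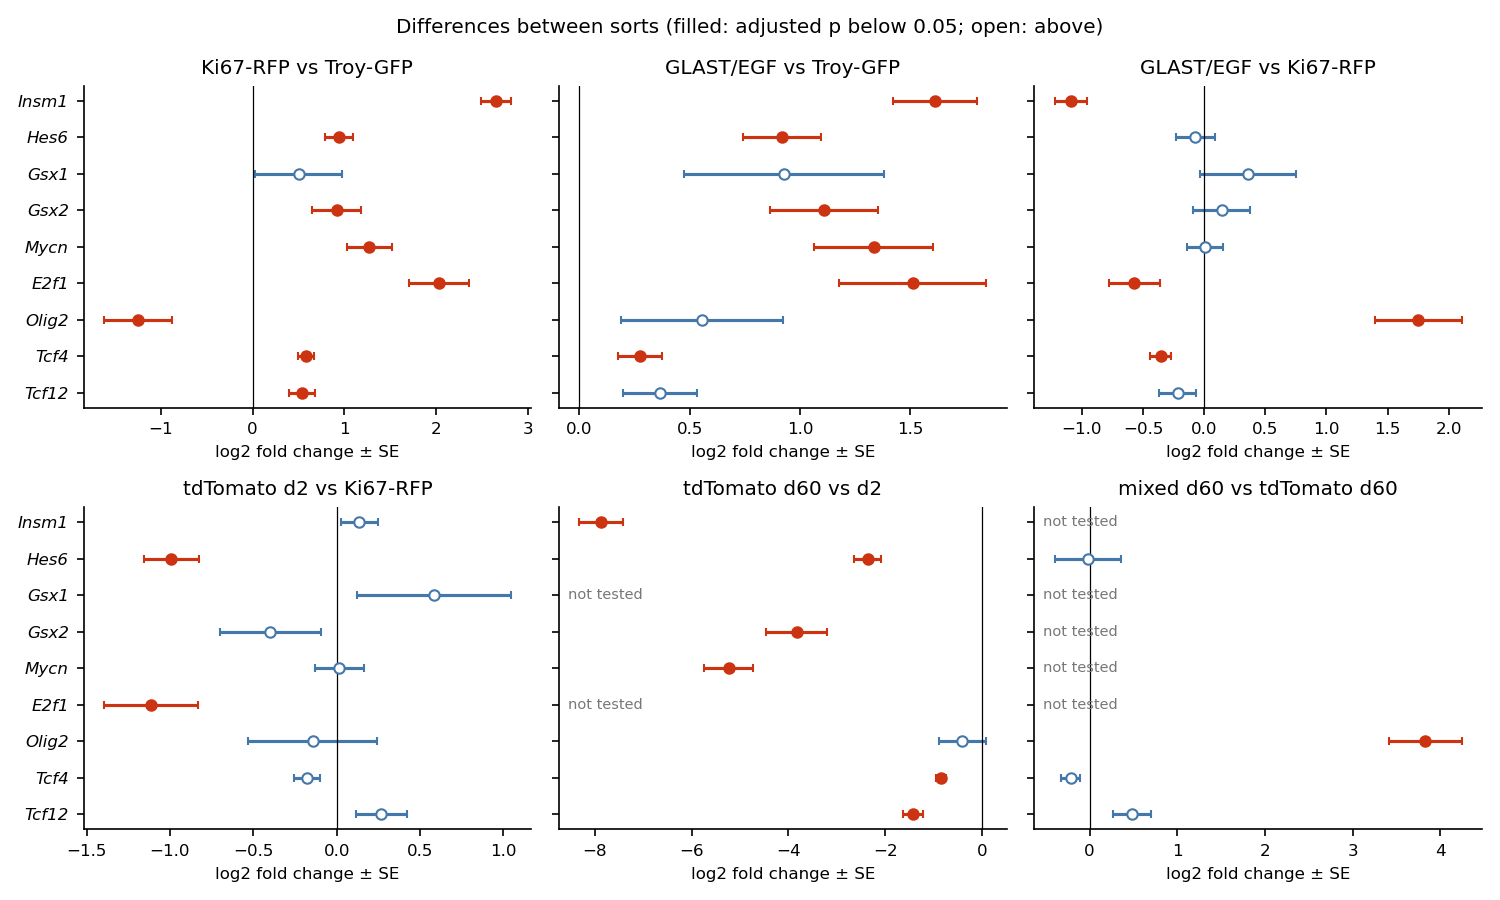
Log2 fold changes (points) and their SE (bars) of the 9 factors in the 6 comparisons between sorts, first sort over second; filled points passed an adjusted p of 0.05. Insm1 is higher in Ki67-RFP than in Troy-GFP by 2.65 and lower at 60 than at 2 days (-7.87), and Olig2 is the factor that is higher in the mixed sort (3.83).

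To place the factors by cell state, all 1789 cells were clustered on variable genes without the 9 factors and without cell cycle genes, which gave 22 clusters. The levels per cluster are descriptions over the libraries that held at least 5 cells of the cluster, with no test of a cluster against the rest. Clusters 0, 4 and 5 were NSC-like, cluster 1 neuroblast-like, and clusters 6, 7, 8 and 15 progenitor-like. The NSC-like name came from a joint list of NSC or astrocyte markers and does not tell stem cells from astrocytes. The progenitor list holds *Egfr* and many cell cycle genes, such as *Mki67*, *Top2a* and *Ube2c*. Its name therefore does not tell progenitors from dividing neuroblasts, and whether the progenitor-like class holds dividing neuroblasts was not tested. Cluster 0 was led by *Hopx* and *Cxcl14*, cluster 4 by *Crym* and *Fjx1*, and cluster 5 by *Agt* and *Islr*. Of the 77 cells of cluster 5, 20 came from the mixed sort. Cluster 6 had *Nptx2* and *Egfr*, the EGF receptor of activated progenitors, among its leading genes; cluster 7 was led by *Mki67*, *Ccna2* and *Helt*; cluster 8 by *Top2a* and *Nusap1*; cluster 15 by *Ube2c* and *Psrc1*, genes of mitosis. Cluster 2 carried neuroblast markers but was led by replication genes such as *Mcm5* and stays unnamed; it is counted with clusters 1, 6, 7, 8 and 15 as neurogenic. Cluster 3 (99 cells, led by *Thbs4*, *Ecel1* and *Gfap*) had 2 NSC or astrocyte markers among its leading genes where 3 were needed for a name, so it is not in the NSC-like class; it held 56 of 311 Troy-GFP cells, 18 of 216 GLAST/EGF cells and 19 of 349 cells of the 60-day SEZ sort.

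Among the neurogenic clusters *Insm1* had its lowest mean in the *Egfr* cluster. It averaged 127 ± 58.7 CPM in cluster 6 (SD, 10 libraries), 378 ± 110 in cluster 7, 541 ± 166 in cluster 2, 689 ± 203 in cluster 8 and 482 ± 106 in cluster 15, and 226 ± 112 in the neuroblast-like cluster 1. The highest library of cluster 6 (276 CPM) lay below the lowest of clusters 2, 8 and 15 (367, 505 and 315 CPM). In NSC-like cluster 0 it averaged 6.48 ± 19.9 CPM over 13 libraries, of which 11 were at 0 and GLAST/EGF library 3 read 71.8 CPM, with a transcript in 3 of 216 cells. In NSC-like clusters 4 and 5 it was at 0 in all 8 libraries each, apart from 1 cell of cluster 5 in a library with fewer than 5 cells.

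*Mycn* and *Hes6* had their highest means in cluster 6. *Mycn* averaged 386 ± 100 CPM in cluster 6, 244 ± 106 in cluster 7 and between 122 and 160 in the others (122 ± 45.6 in cluster 8, 153 ± 79.8 in cluster 2, 156 ± 52.2 in cluster 1 and 160 ± 102 in cluster 15). The highest library of cluster 15 (334 CPM) lay within the range of cluster 6, while all cluster 6 libraries (275 CPM and above) lay above all cluster 8 libraries (196 CPM and below). *Hes6* averaged 509 ± 211 CPM in cluster 6, 458 ± 138 in cluster 7, 307 ± 124 in cluster 2, 160 ± 37 in cluster 8, 67.4 ± 22.5 in cluster 15 and 81.7 ± 44 in cluster 1. NSC-like clusters averaged 23.5 to 40.5 CPM of *Hes6*, with a transcript in 16.7% of the 216 cells of cluster 0 (median 4693 transcripts per cell) and 12.6% of the 238 cells of cluster 4 (5392). Endothelial-like cells, shallower at a median of 3583, had one in 11.5% of 61 and microglia-like cells (2714) in 10.5% of 57. The NSC-like share is therefore close to that of unrelated cells and is not read as expression.

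*Gsx2* averaged 107 ± 36.5 CPM in cluster 6 and 87 ± 35.9 in cluster 7, down to 25.9 ± 26.3 in cluster 1, and *Gsx1* 50.5 ± 36.6 and 57.9 ± 39.2 in clusters 6 and 7 and 5.41 ± 8.21 in cluster 1. *Gsx1* was not confined to the neurogenic clusters. Oligodendrocyte precursor-like cluster 16 averaged 59.3 ± 83.8 CPM over 2 libraries (0 and 119 CPM), with a transcript in 6 of 23 cells. *E2f1* averaged 102 ± 40.5 CPM in cluster 2, 85.6 ± 32.1 in cluster 7, 60.7 ± 18.3 in cluster 6, 59 ± 31.9 in cluster 8, 43.4 ± 30.8 in cluster 15 and 14 ± 12.9 in cluster 1, with wide overlap between clusters. *Tcf4* ran from 1338 ± 300 CPM in cluster 6 through 1653 ± 197 in cluster 7, 1658 ± 431 in cluster 2, 1797 ± 414 in cluster 8 and 2135 ± 639 in cluster 15 to 2201 ± 321 in cluster 1, with 570 to 1079 CPM in the NSC-like clusters. *Tcf12* held between 187 and 242 CPM over the neurogenic clusters and between 67.7 and 88.9 CPM over the NSC-like ones. Other clusters spread over both ranges. *Tcf12* averaged 276.5 ± 109 CPM in unnamed cluster 20 and 180 ± 31 in cluster 16 (2 libraries each). Oligodendrocyte-like cells averaged 128 ± 10.8 CPM, endothelial-like cells 113 ± 114, mature neuron-like cells 86.7 ± 26.8 and microglia-like cells 61.9 ± 124.

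**Figure D3:**
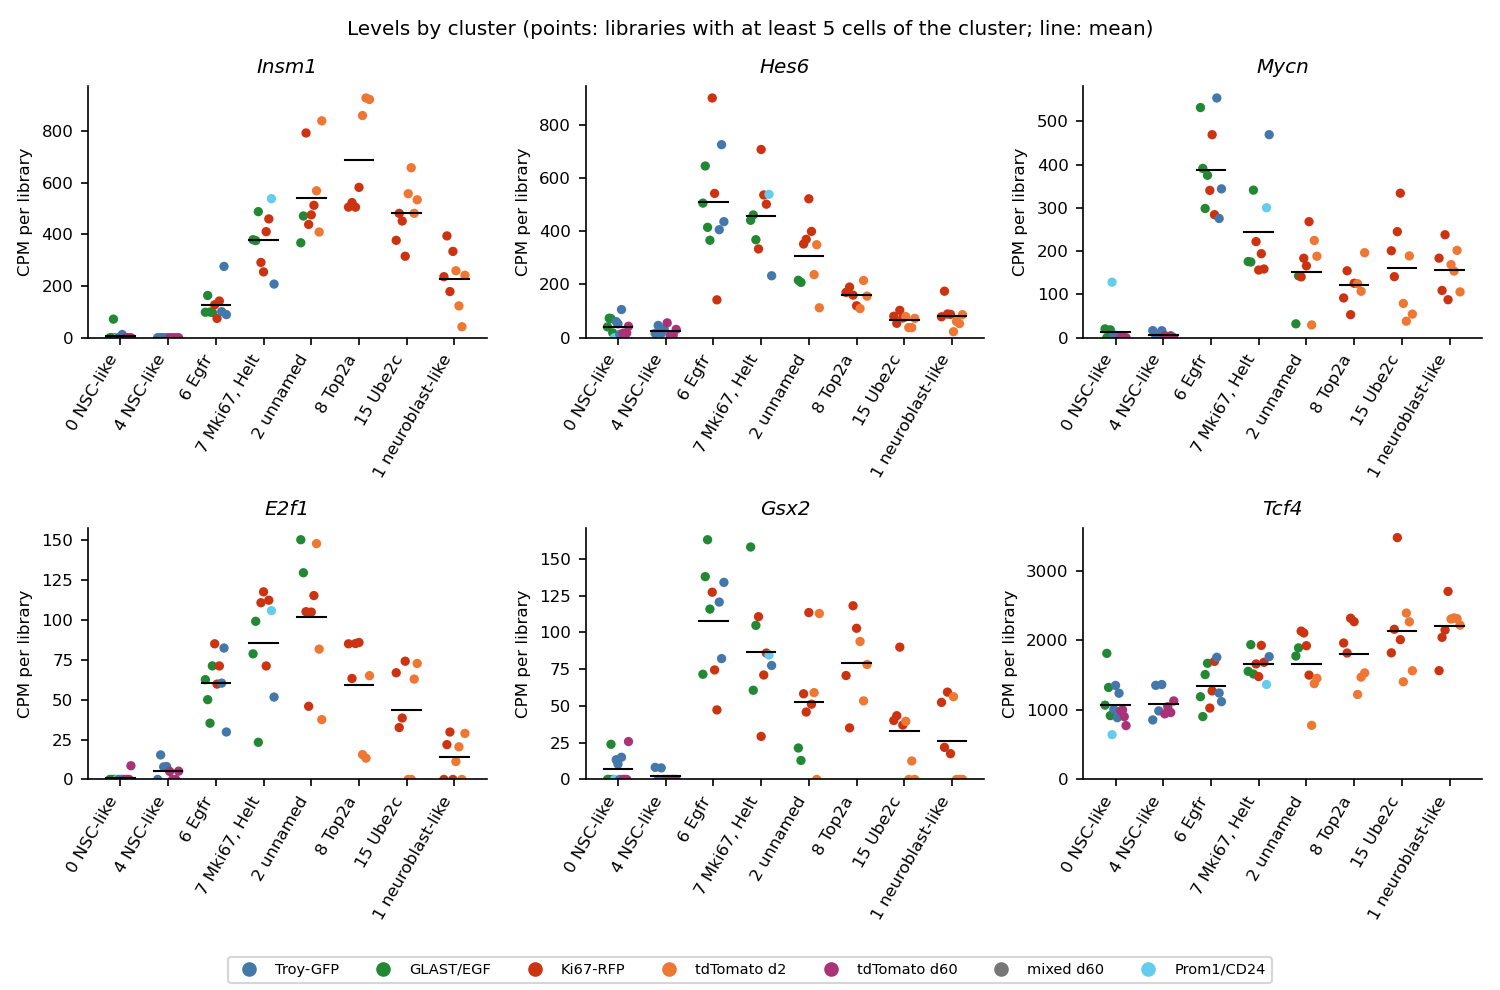
CPM of 6 factors per cluster; each point is a library with at least 5 cells of that cluster, coloured by sort, and the line is the mean over libraries. Insm1 has its highest mean in cluster 8 (689 CPM), Mycn and Hes6 in cluster 6 (386 and 509 CPM), and Tcf4 in cluster 1 (2201 CPM).

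In GLAST/EGF the neurogenic cells gave most transcripts of all 9 factors, and in Troy-GFP most transcripts of 6 of them. They were 47.2% of cells in GLAST/EGF and gave 95.8% of *Insm1* transcripts, with the other factors between 75.5% (*Tcf4*) and 97.97% (*Gsx1*). In Troy-GFP they were 14.5% of cells and gave 96.6% of *Insm1*, 77.3% of *Mycn* and 74.9% of *Hes6*, against 35.7% of *Tcf12*, 31.5% of *Tcf4* and 28.9% of *Olig2*. In the mixed sort (5 of 314 cells) they gave at most 2.22% of the transcripts of any factor. These shares are not corrected for depth. Over all sorts, neurogenic clusters 6, 7 and 8 had medians of 8316, 11455.5 and 9117 transcripts per cell. Clusters 2, 15 and 1 had 6949, 5595 and 3068, and NSC-like clusters 0, 4 and 5 had 4693, 5392 and 4449. Deeper cells add more to the share of any gene, and the share over all genes was not computed. Among NSC-like cells alone, those of Troy-GFP held 1.00 transcript of *Insm1* and those of the 60-day SEZ sort none. In that comparison of NSC-like cells between the 60-day SEZ and Troy-GFP sorts, 1.34% of 5683 genes passed (0.633% higher, 0.704% lower, limma voom) and none of the 4 factors tested did: *Hes6* -0.94 ± 0.44, *Olig2* -0.46 ± 0.60, *Tcf12* -0.43 ± 0.24 and *Tcf4* -0.22 ± 0.11. At an unadjusted p under 0.05, 1 of the 4 (*Hes6*) would have passed, and its adjusted p was 0.36 by limma voom.

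Progenitor-like cells differed between GLAST/EGF and Ki67-RFP in 4 of the 9 factors, where 19.3% of 5991 genes passed (9.6% higher, 9.66% lower). *Olig2* was higher in GLAST/EGF by 2.46 ± 0.42 (adjusted p = 5.3e-05, limma voom), with libraries at 306, 104, 95.4 and 311 CPM against 16.8, 22.1, 23.4 and 81.1 CPM. *Mycn* was higher by 0.57 ± 0.16 (275 ± 29.7 against 186 ± 24.8 CPM) and *Gsx2* by 0.73 ± 0.25 (adjusted p = 0.0396). *Insm1* was lower by -0.74 ± 0.15 (248 ± 43.8 against 413 ± 35.4 CPM, adjusted p = 0.00065), and the groups did not overlap. *Hes6* (0.43 ± 0.16, adjusted p = 0.059), *Gsx1*, *E2f1*, *Tcf4* and *Tcf12* did not pass.

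Different clusters made up the class in the 2 sorts: clusters 6 and 7 held 48 and 27 of the 85 cells of GLAST/EGF, and clusters 7, 8 and 15 held 54, 69 and 54 of the 200 cells of Ki67-RFP. Within cluster 6 alone (3.76% of 1887 genes passed, 0.954% higher and 2.81% lower) and within cluster 7 alone (1.73% of 2883 genes passed, 1.32% higher and 0.416% lower) no factor passed by limma voom, and none had an unadjusted p under 0.05. *Insm1* differed by 0.17 ± 0.50 in cluster 6 and by 0.21 ± 0.22 in cluster 7, with the sign turned, and *Mycn* by 0.06 ± 0.29 and 0.24 ± 0.27. *Olig2* kept its direction, at 2.78 ± 2.02 and 1.04 ± 0.62. The *Insm1* call was also lost in thinned cells (-1.11, adjusted p = 0.18) and at Leiden resolution 2.0 (-0.39, adjusted p = 0.062). The *Mycn* call was lost under 7 alternatives, among them a minimum of 500 (0.25) or 2000 transcripts per cell (0.31) and resolution 0.5 (0.30). *Hes6* passed without GLAST/EGF library 4 (0.52) or Ki67-RFP library 3 (0.54), and *Tcf4* without GLAST/EGF library 4 (-0.32). The *Gsx2* call was lost under 14 alternatives, among them leaving out GLAST/EGF library 3 (0.69) or 4 (0.54) or Ki67-RFP library 1 (0.78) or 2 (0.50).

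In neuroblast-like cells, 17.1% of 1546 genes passed (6.21% higher, 10.9% lower) between 2 days and Ki67-RFP. *Insm1* was lower at 2 days by -1.19 ± 0.41 (adjusted p = 0.046, limma voom), with libraries at 252, 117, 41.2 and 237 CPM against 243, 409, 184 and 344 CPM, which overlap. The call was lost under 11 alternatives, including without Ki67-RFP library 1, 2 or 4 or 2-day library 2 or 3 (-1.25 to -0.70). *Mycn* (0.17 ± 0.41), *Tcf12* (0.32 ± 0.33) and *Tcf4* (0.02 ± 0.13) did not pass, and the other 5 factors were too sparse. *Dlx2* (-0.70 ± 0.14) and *Dlx1* (-0.55 ± 0.13) were also lower.

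*Olig2* was present in all 23 cells of the oligodendrocyte precursor-like cluster (1933 ± 244 CPM, 2 libraries) and in 90.1% of 142 oligodendrocyte-like cells (529 ± 144 CPM, 4 libraries). Outside that lineage it was uneven. Cluster 6 averaged 190 ± 212 CPM over 10 libraries, with 615 and 549 CPM in GLAST/EGF libraries 1 and 4, 138 and 107 CPM in libraries 2 and 3, and 0 to 137 CPM in the 6 other libraries. In GLAST/EGF 24 of 48 cells of cluster 6 held a transcript, up to 38.8 in 1 cell; in Ki67-RFP it was 4 of 23 cells. In all of cluster 6, 38.7% of cells had a transcript, or 10.4% after thinning each cell to 1000 transcripts. Endothelial-like cells had one in 1 of 61 (1.64% after thinning) and microglia-like cells in 6 of 57 (0 after thinning). Mature neuron-like cells had one in 15 of 63 (6.35% after thinning). Over 4 libraries each, microglia-like cells still averaged 94.8 ± 74.7 CPM of *Olig2*, from 6.01 transcripts, and mature neuron-like cells 63.8 ± 68 CPM. All of these microglia-like and mature neuron-like transcripts came from cells of the mixed sort, which includes O4+ oligodendrocytes. Pooled over all 57 microglia-like cells the level was 27.8 CPM. The cluster led by gut genes, from Troy-GFP and GLAST/EGF, had a transcript in 9 of 35 cells (8.57% after thinning) and 48 CPM pooled. Low levels of *Olig2* thus also occurred in unrelated cells, and the highest of these values rest on the mixed sort. NSC-like cluster 5 averaged 127 ± 69.5 CPM, with a transcript in 30 of 77 cells (13% after thinning), while cluster 4, also NSC-like, averaged 15.5 ± 14.6 CPM with 15 of 238 cells. In the neuroblast-like cluster it was found in 2 of 172 cells.

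**Figure D4:**
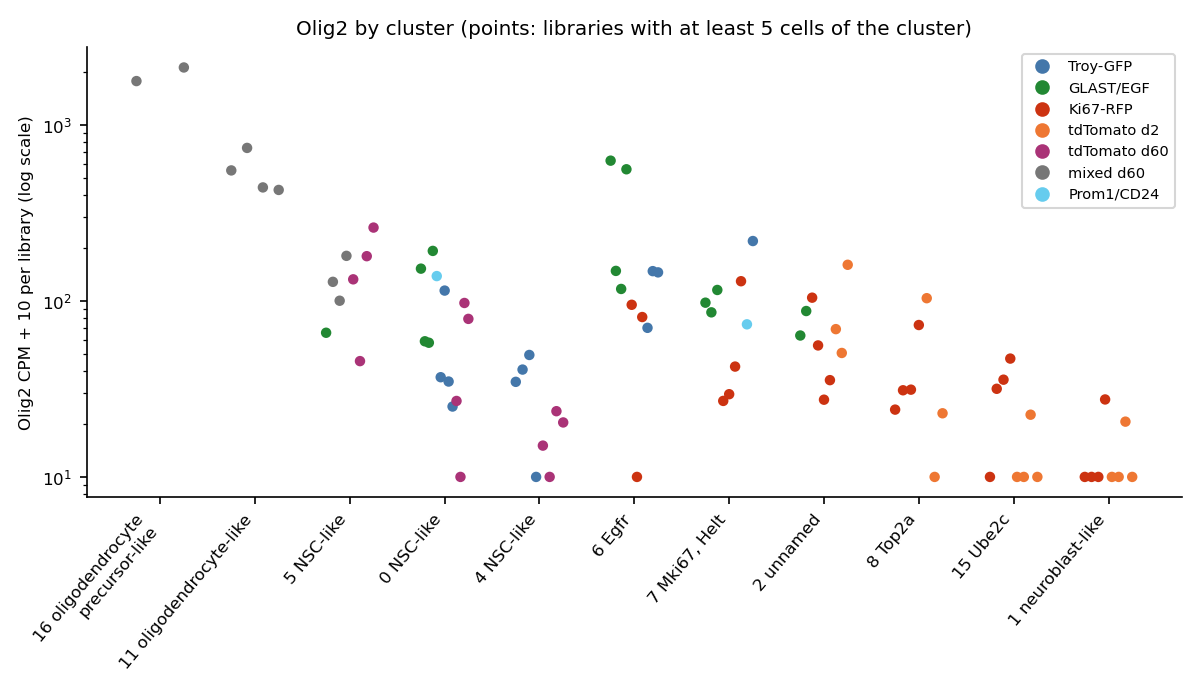
Olig2 CPM plus 10 per library (log axis) in 11 clusters; points are libraries with at least 5 cells of the cluster, coloured by sort. Oligodendrocyte precursor-like cells are highest (1933 CPM on average), and the GLAST/EGF libraries of cluster 6 spread from 107 to 615 CPM.

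To see how the factors vary with division, the neurogenic cells of GLAST/EGF, Ki67-RFP and the 2-day sort (611 cells) were divided by the share of their transcripts from 96 S, G2 and M phase genes, at 1% of transcripts: 390 cycle-high cells and 221 cycle-low cells, with 44 cells within 0.2 points of that value. This is a range and not a cell type, and none of the 9 factors is among the 96 genes. Sums of the 2 ranges were compared within each of 12 libraries. Of 2596 genes tested 41.2% passed (19.5% higher, 21.7% lower).

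*Insm1* was higher in cycle-high cells by 1.42 ± 0.21 (adjusted p = 1.6e-05, limma voom with the library as a block), in 12 of 12 libraries. Cycle-high cells averaged 333 ± 66.5 CPM in GLAST/EGF, 452 ± 22.6 in Ki67-RFP and 669 ± 20.3 at 2 days, against 106 ± 34.3, 268 ± 61.4 and 168 ± 93.1 CPM in cycle-low cells (n = 4 libraries each). *Mycn* was lower in cycle-high cells by -0.61 ± 0.13 (adjusted p = 0.00094), in 10 of 12 libraries, with 183 ± 31.3 against 274 ± 109 CPM. Within single sorts, *Insm1* was higher in all 3 (1.86 ± 0.34 in GLAST/EGF, 0.79 ± 0.18 in Ki67-RFP and 1.91 ± 0.25 at 2 days). *Mycn* was lower in GLAST/EGF alone (-0.72 ± 0.20, adjusted p = 0.021) and did not pass in Ki67-RFP alone (-0.45, adjusted p = 0.17) or at 2 days alone (-0.50, adjusted p = 0.075). In those fits 16.8% of genes passed in GLAST/EGF (8.08% higher, 8.74% lower), 17.5% in Ki67-RFP (8.01% higher, 9.51% lower) and 34.8% at 2 days (18.2% higher, 16.6% lower). *E2f1*, too sparse for the pooled test, averaged 72.5 ± 21.2 CPM in cycle-high and 21.1 ± 26.3 CPM in cycle-low cells and was higher in 11 of 12 libraries. In Ki67-RFP alone it was higher by 2.05 ± 0.52 (adjusted p = 0.0032, limma voom). Its cycle-low sums there held 1.00, 2.01, 2.00 and 0 transcripts, so it met the filter on low genes through the cycle-high sums. In GLAST/EGF alone *E2f1* did not pass (1.11 ± 0.54, adjusted p = 0.18, limma voom), and at 2 days alone it was too sparse to test.

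*Hes6* (0.18 ± 0.15), *Tcf12* (0.25 ± 0.13) and *Tcf4* (-0.16 ± 0.09) did not pass. With the ranges divided at 2% in place of 1%, *Hes6* turned to -0.43 ± 0.12 (adjusted p = 0.0072). Without the filter on low genes *Hes6* (0.45) and *Tcf12* (0.46) passed and *Mycn* (-0.37, adjusted p = 0.051) did not. *Tcf4* passed with 500 (-0.28) or 2000 (-0.27) transcripts per cell and without Ki67-RFP library 3 (-0.26). *Tcf4* was lower in cycle-high cells at 2 days alone (-0.45 ± 0.09, adjusted p = 0.00022; 0 of 4 libraries higher), while the Ki67-RFP cells gave -0.03 ± 0.09 and the GLAST/EGF cells 0.16 ± 0.12. The difference of that effect between GLAST/EGF and the 2-day sort passed its own test (0.61 ± 0.17, adjusted p = 0.023), where 8.28% of genes did. The cycle-low cells differ by sort: 29 of 34 are of cluster 6 in GLAST/EGF, while 41 of 66 in Ki67-RFP and 111 of 121 at 2 days are of neuroblast-like cluster 1. The part of that makeup in these differences was not tested.

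Among other genes outside the cycle list, the pocket protein gene *Rbl1* (2.02 ± 0.36) and the E2F partner *Tfdp1* (1.46 ± 0.25) were higher in cycle-high cells, and 3 of 4 tested E2F and pocket protein genes were higher. *Hes5* (-2.06 ± 0.35), *Id4* (-0.76 ± 0.18) and the neuronal zinc finger gene *Myt1* (-1.01 ± 0.18) were lower, as were 4 of 8 tested ventral forebrain homeobox and Sp factors, led by *Sp8* (-1.33 ± 0.21).

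**Figure D5:**
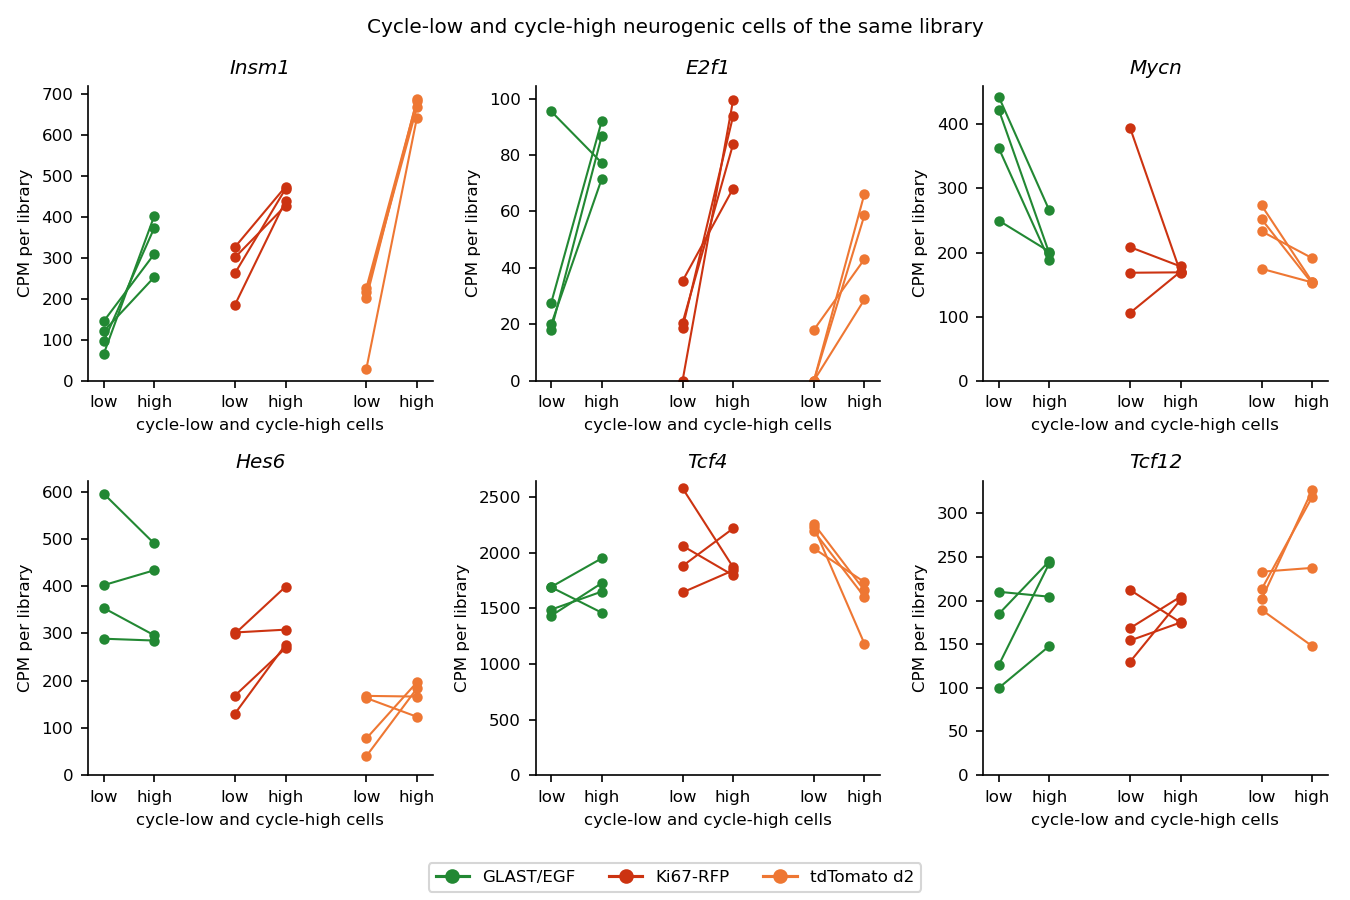
CPM of 6 factors in cycle-low and cycle-high neurogenic cells; each line joins the 2 sums of a library, coloured by sort. Insm1 is higher in cycle-high cells in 12 of 12 libraries, Mycn lower in 10 of 12, and Tcf4 lower in all 4 libraries at 2 days.

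Across the 28 libraries, the genes with the most similar profiles (Pearson's r of log2(CPM + 1) over 8401 genes) were *Dut* (0.98), *Hmgn2* and *Dlx2* for *Insm1*; *E2f1* (0.95), *Mex3a* and *Pold3* for *Hes6*; *Plk4* (0.96), *Blm* and *Cdk2ap1* for *Mycn*; and *Dtl* (0.96), *Aspm* and *Smc2* for *Gsx2*. For *E2f1* they were *Hes6*, *Cdc6* (0.94) and *Pold3*, for *Tcf4* *Pbrm1* (0.93), *Bzw2* and *Mta2*, for *Tcf12* *Bex4* (0.88), *Kansl1* and *Nif3l1*, for *Gsx1* *Cdca7l* (0.88), *Syncrip* and *C1qbp*, and for *Olig2* *Mapt* (0.83), *Srcin1* and *Agap1*. The libraries share sorts, so these values describe the makeup of the sorts as much as single genes.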

How the data were processed

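Single cells of 28 libraries were read by SORT-seq on an Illumina NextSeq500 with 75 bp paired ends, per the labels' protocols. BWA 0.6.2-r126 and mm10 are named in the submitters' processing notes; the counting step and its use of strand are not given in the sources used here. The deposited tables hold estimated transcripts per gene and well, made by the authors from molecular barcodes: 4800995 of the 4801006 values above 0 match a whole number of barcodes corrected for collisions among 256, and 11 are saturated. Because such estimates are not counts, library sums over cells were tested with limma 3.58.1 (R 4.3.3), voom after TMM scaling, with Benjamini-Hochberg adjustment over all genes with 10 transcripts at the median depth in as many libraries as the smaller group and 15 in all. Spike-in rows (87) stayed out.

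Cells needed 1000 transcripts. Clusters were made with scanpy 1.11.5 (2000 variable genes, 30 components, 15 neighbours, Leiden resolution 1.0). A cluster took the name of the marker list with most genes among its 50 leading genes. It was left unnamed with fewer than 3 such genes, which decided clusters 3, 13, 14, 20 and 21, or where another list led its top 10, a rule applied after the clusters were seen, which removed cluster 2 from the neuroblast-like class. No doublet caller was run; 0 wells were identical between libraries. The cycle range used 96 of 97 listed genes, and its comparison between sorts was added after seeing the data. Fits were tested on simulated data for 3 comparisons: Ki67-RFP against Troy-GFP, neuroblast-like cells, and cycle ranges. The simulation gave all genes the same dispersion and held no batch or library effect. Its rates therefore need not hold for factors that vary more between libraries. A true log2 change of 1 was recovered in 45.6%, 57.5% and 94.9% of changed genes, and a change of 2 in 97.7%, 98.8% and 100%. Of unchanged genes, 0.0618%, 0.634% and 0.278% were called. A factor that did not pass is thus not shown to be equal. Levels per cluster are CPM of the library's cells in the cluster without TMM scaling. The text names all 9 factors, up to 4 genes per list and comparison with the largest fold change among those that passed, and the 3 genes most like each factor; some genes that this rule names are not reported here. The factors and lists were chosen with earlier results of these data known. Flow cells were taken from the run identifiers that the deposited files carry, where given.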

Additional observations from a re-analysis of the deposited data

Results flagged for a closer look

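Of 63 groups of 4 libraries (a factor in a sort), 2 held a library whose gap to the nearest other exceeded Dixon's limit of 0.829 of the range, near the 1 in 20 that chance gives: library 1 of GLAST/EGF, with 52.7 CPM of *Gsx1* against 21.1 to 22.1 and 219 CPM of *Mycn* against 160 to 166. Of 54 such groups within a cell class, 11 did. In 6 of them a single library is above 0: *Gsx1* in neuroblast-like cells of Ki67-RFP library 2 (22.6 CPM), *Gsx2* (54.7 CPM, library 1) and *Olig2* (10.3 CPM, library 3) in those at 2 days, *Olig2* in those of Ki67-RFP library 4 (18.1 CPM), *Insm1* in NSC-like cells of Troy-GFP library 3 (4.5 CPM), and *Gsx2* in NSC-like cells at 60 days (8.22 CPM, library 4). The rest are *Hes6* in neuroblast-like cells of Ki67-RFP library 2 (182 CPM against 81 to 91.9), *Gsx2* (41.5 CPM, library 2), *Olig2* (81.1 CPM, library 4) and *Tcf12* (164 CPM, library 3) in progenitor-like cells of Ki67-RFP, and *Tcf4* in NSC-like cells at 60 days (983 CPM in library 2 against 910 to 916).

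The cycle-high minus cycle-low difference of *Tcf4* was larger in GLAST/EGF than at 2 days by 0.61 on the log2 scale (adjusted p = 0.023, limma voom), and none of the other 4 factors tested, and no other pair of sorts, gave a difference that passed; for *Insm1* the 2-day sort against Ki67-RFP gave 1.15 ± 0.35 (adjusted p = 0.10).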

How the results depend on the processing

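Of 34 factor results that passed, 19 kept direction and call in every alternative run; over all 34, 596 of 667 alternatives kept both, 69 lost the call and 2 turned the sign (*Insm1* in progenitor-like clusters 6 and 7 alone, 0.17 and 0.21). All 189 alternative levels stayed within 1 SD. The replicate numbers did not pair the libraries: same-numbered deviations correlated between -0.08 and 0.07. A replicate block left the counts of genes called within 1.5 times (2175 against 2381 for GLAST/EGF against Troy-GFP), ended the calls of *Insm1* in neuroblast-like cells (-0.82, adjusted p = 0.051) and *Tcf4* in GLAST/EGF against Troy-GFP (adjusted p = 0.094), and added *Tcf4* at 2 days against Ki67-RFP (adjusted p = 0.044) and *Hes6* (0.038) and *Tcf4* (0.036) in progenitor-like cells. It changed no other call of a factor; without the library block the cycle comparison called 653 of 1070 genes. Total transcripts in place of TMM moved the median gene by -0.16 at 60 against 2 days and 0.13 for mixed against 60 days. Cause was not tested except where fewer genes, cells or libraries entered.

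Thinning to 1000 transcripts left fewer genes and called 1160, 280, 668, 469, 1226 and 991 in the 6 sort comparisons in the order reported, 52 in neuroblast-like, 108 in progenitor-like, 14 in NSC-like cells and 73 by cycle; the main counts are 5030, 2381, 2843, 1982, 5162, 3528, 265, 1154, 76 and 1070. With no filter, 1079, 120 and 7487 genes were called in neuroblast-like, NSC-like and cycle comparisons. The shared flow cell gave 1040 for GLAST/EGF against Troy-GFP and 700 for progenitor-like cells. Neuroblast-like calls were 466 at Leiden resolution 0.5 and 466 at 2.0, and 617 with cycle genes kept; the class then held 74, 74 and 94 cells of Ki67-RFP in place of 46. Progenitor-like calls were 733 with 500 transcripts per cell, 738 and 726 at resolution 0.5 and 2.0, 71 in cluster 6 and 50 in cluster 7. NSC-like calls without 1 library ran from 48 (60-day library 2) to 93. A cycle share of 0.5% called 540 and GLAST/EGF alone 579.

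The other sign changes are of factors that did not pass. On the shared flow cell: *Gsx1*, Ki67-RFP against Troy-GFP, -0.18; *Olig2*, GLAST/EGF against Troy-GFP, -0.11; *Hes6* 0.23 and *Gsx2* -0.070, GLAST/EGF against Ki67-RFP; *Tcf12* in progenitor-like cells, -0.12; *Olig2* in NSC-like cells, 0.23. *Mycn* in GLAST/EGF against Ki67-RFP gave -0.010 unfiltered, -0.35 thinned, -0.031 with all sorts in the fit and -0.0025 without the gut-like cluster, and *Hes6* gave 0.19 thinned. At 2 days against Ki67-RFP, *Mycn* gave -0.014 unfiltered; thinned, *Insm1* gave -0.40, *Mycn* -0.41 and *Tcf4* 0.030. *Hes6* in mixed against 60 days gave 0.10 by total transcripts, 0.016 unfiltered, 0.061 with all sorts and 0.11 without the gut-like and T cell-like clusters. In neuroblast-like cells *Mycn* gave -0.11 with the replicate block, -0.36 at 500 and -0.28 at 2000 transcripts, -0.40 at both resolutions and -0.22 with cycle genes kept; *Tcf4* gave -0.051 and -0.064 at 500 and 2000 transcripts, -0.12 at both resolutions and -0.065 with cycle genes kept, where *Tcf12* gave -0.047. In progenitor-like cells *Tcf4* gave 0.082 thinned, *Tcf12* -0.093 in cluster 6 and *Hes6* -0.21 in cluster 7. By cycle, *Tcf4* gave 0.043 unfiltered, 0.052 at 2% and 0.16 in GLAST/EGF; *Hes6* gave -0.11 in GLAST/EGF and -0.43 at 2%. Leaving out 1 library, GLAST/EGF against Ki67-RFP ranged from -0.093 to 0.063 for *Mycn*, -0.18 to 0.093 for *Hes6*, -0.037 to 0.61 for *Gsx1* and -0.094 to 0.28 for *Gsx2*; 2 days against Ki67-RFP from -0.028 to 0.082 for *Mycn* and -0.44 to 0.14 for *Olig2*; mixed against 60 days from -0.20 to 0.26 for *Hes6*; neuroblast-like cells from -0.12 to 0.16 for *Tcf4*, -0.19 to 0.38 for *Mycn* and -0.079 to 0.53 for *Tcf12*; NSC-like cells from -1.01 to 0.41 for *Olig2*.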
